A study of Arabidopsis thaliana with 24 samples.

Results

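The overexpressed regulator MYB12 was examined in Arabidopsis thaliana plants without chalcone synthase by setting the 3 ATH1 arrays of MYB12OX/tt4 against the 3 arrays of tt4. These 6 arrays were chosen by their titles from the 24 arrays of the series, which cover 8 genotypes. Both genotypes are tt4, a mutant of CHS in the Col-0 background, so the gene for chalcone synthase is lost on both sides of the comparison. MYB12OX/tt4 is a homozygous cross of the MYB12 overexpressor MYB12OX with tt4. For the same regulator with an intact CHS gene, the 3 arrays of MYB12OX were set against the 3 arrays of wild-type Col-0. All arrays hold total RNA from aerial parts at 3 weeks of age. The sources used here do not give the promoter that drives MYB12, the tt4 allele or the number of crossed lines. Nor do they say if the 3 arrays of a genotype stand for separate plants or for pools, so the p-values refer to array-to-array spread that may be technical.

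Chalcone synthase makes the chalcone skeleton from which flavonols and anthocyanins are both built, and tt4 seeds are pale because the pathway stops there. MYB12 is an R2R3 MYB transcription factor that switches on early genes of the pathway and so raises flavonols, the colourless flavonoids that absorb ultraviolet light. The comparison therefore asks which transcripts differ with the regulator when the plant makes no flavonoids.

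The values are signals, the brightness that MAS5 gives a probe set, which is a group of short probes for 1 transcript or a few related ones. Differences are in log2(signal + 42.6) with the SE of a common limma fit, and a probe set was called at an adjusted p under 0.05. Of 22746 probe sets, 14935 were bright enough to be tested, and the number of arrays limits the precision. The median signal of the 6 arrays lay between 166.7 and 176.0, and 60.3% to 61.3% of their probe sets exceeded a signal of 85.2. Array profiles correlated at 0.988 to 0.992 within a genotype and at 0.986 to 0.989 between MYB12OX/tt4 and tt4, across probe sets. On the first principal component of all arrays, which held 34.5% of the variance, MYB12OX/tt4 averaged 12.6, pap1-D/tt4 19.1 and tt4 21.1. Through all genotypes this component largely rose in the order of the sample list. It went from -28.8 on the first Col-0 array, over -22.6, -17.0 and -15.1 in MYB12OX, to 22.7 on the last tt4 array. What it stands for was not tested. RCA, the activase of the carbon-fixing enzyme Rubisco and a marker of leaf tissue, differed by -0.09 (95% interval -0.25 to 0.07). PYK10, a beta-glucosidase best known from roots, differed by 0.21 (95% interval -0.17 to 0.58). In tissue extracts, fewer cells of a type and less RNA per cell cannot be told apart.

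CHS, MYB12 and PAP1 have no probe set with their name in the annotation used here, so the overexpressed gene could not be checked by name. The unnamed probe set 245126_at followed the MYB12OX label instead, and this was seen in its values. It read 2364, 2426 and 2479 in MYB12OX/tt4 and 28.6, 31.9 and 20.8 in tt4. The tt4 signals lie under the brightness floor of 85.2, and against that floor the mean in MYB12OX/tt4 was at least 28.4-fold higher. On the log2 scale with the offset, 245126_at differed from tt4 by 5.15 (limma adjusted p = 3.09e-20). Over the whole series, the 12 arrays whose genotype carries MYB12OX lay between 2013 and 2479 and the 12 others between 15.1 and 50.7. Since it was picked for following the label, it is no check of the labels, and it is left out of the descriptions of direction and size that follow.

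Few probe sets were called between plants with and without overexpressed MYB12 when CHS was missing. Of 14935 probe sets, 19 were higher in MYB12OX/tt4 and 9 lower, which is 0.127% and 0.0603% and 0.187% together. Apart from 245126_at, the called differences were between 0.34 and 1.05 in size, and 1 of them, that of AT3G29120, exceeded a factor of 2 on this scale. The arrays of both genotypes did not overlap for any of these 27, but neither did they for 7.75% of all tested probe sets with MYB12OX/tt4 higher and 9.68% with it lower. Without adjustment, 1602 probe sets had p under 0.05 with limma, 10.7% of those tested, so the 28 calls need not be all that differ. Same-numbered arrays deviated together, and a fit blocked on the replicate number called 97, of which 65 were higher and 32 lower, including all 28. A fit to the 6 arrays alone called 9. Leaving out 1 array gave 12 calls without MYB12OX/tt4 replicate 2, 16 without tt4 replicate 3, 18 without MYB12OX/tt4 replicate 1 or tt4 replicate 1, and up to 26 otherwise.

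Of the 28 probe sets, 12 have exactly 1 gene name, with 9 higher and 3 lower. AT3G29120 read 208, 180 and 208 in MYB12OX/tt4 and 67.9, 57.3 and 99.98 in tt4. All its tt4 arrays lay below the MYB12OX/tt4 arrays, and the difference of 1.05 ± 0.16 (limma adjusted p = 0.00299) was the greatest among named genes. The tt4 mean of 75.1 is under 85.2, so the size of this difference depends on the offset. Its probe set has the suffix s_at, which marks probes that may also read related transcripts, so the value may not belong to this gene alone. With an intact CHS gene it was 152 in Col-0 and 164 in MYB12OX, a difference of 0.08 ± 0.16 (adjusted p = 0.894).

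AT5G48490 encodes a lipid transfer protein related to DIR1, a carrier in systemic defence signalling. It read 2096, 2051 and 1956 in MYB12OX/tt4 and 924, 1251 and 1110 in tt4. The 3 MYB12OX/tt4 arrays were close together and all higher than tt4, by 0.88 ± 0.10 (limma adjusted p = 7.78e-05). AT2G34620, of the mTERF family that serves gene expression in chloroplasts and mitochondria, read 1154, 1098 and 928 in MYB12OX/tt4 and 626, 657 and 500 in tt4. It rose by 0.79 ± 0.10 (limma adjusted p = 0.00043), again with no overlap. Both transcripts were brighter in Col-0 than in either CHS mutant line, with means of 3415 for AT5G48490 and 1700 for AT2G34620.

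MSRB5 encodes a methionine sulfoxide reductase, an enzyme that repairs oxidised methionine in proteins. Its signals were 1170, 1270 and 1008 in MYB12OX/tt4 and 745, 835 and 681 in tt4, and it rose by 0.58 ± 0.11 (limma adjusted p = 0.0179). AT4G12980, from a family of auxin-responsive proteins with a cytochrome b561 domain, read 899, 703 and 853 against 572, 545 and 571. It rose by 0.50 ± 0.10 (limma adjusted p = 0.0313). UGT88A1, a glycosyltransferase that acts on flavonols in the test tube, read 2495, 2200 and 2161 against 1784, 1797 and 1789. The 3 tt4 arrays differed from each other by far less than from the MYB12OX/tt4 arrays, and UGT88A1 rose by 0.34 ± 0.07 (limma adjusted p = 0.0332). AT4G16980, annotated in the arabinogalactan-protein family of cell wall glycoproteins, rose by 0.36 ± 0.06, AT2G35260 by 0.35 ± 0.07, and AT2G29310, a short-chain dehydrogenase related to tropinone reductases, by 0.34 ± 0.07. Leaving out 1 of the 6 arrays ended no call of AT4G16980. It ended that of MSRB5 without either genotype's replicate 1, MYB12OX/tt4 replicate 2 or tt4 replicate 3, and those of AT4G12980 and AT2G35260 in all cases but MYB12OX/tt4 replicate 2. The call of UGT88A1 held only without MYB12OX/tt4 replicate 3 and that of AT2G29310 only without tt4 replicate 3, and the adjusted p of these 5 genes rose to 0.201 at most.

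The 5 rising probe sets with no or several gene names that the naming rule takes were 267038_at (0.59), 267256_s_at (0.58), 248910_at (0.53), 265962_at (0.53) and 253362_s_at (0.53). Of these, 253362_s_at kept its call without any 1 of the 6 arrays, and the others lost it in 3 to 5 of 6 cases, all without MYB12OX/tt4 replicate 2.

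Of the 3 named genes that fell, AT4G38540, an FAD-dependent oxidoreductase, read 395, 422 and 405 in MYB12OX/tt4 and 718, 721 and 771 in tt4. Its arrays were tight in both genotypes, and it fell by 0.79 ± 0.16 (limma adjusted p = 0.0348). PDC2, a pyruvate decarboxylase of alcoholic fermentation, read 2359, 2156 and 2131 against 3044, 2981 and 2989, and fell by 0.43 ± 0.07 (limma adjusted p = 0.00871). DPL1, the lyase that breaks down phosphorylated sphingoid bases, read 366, 380 and 398 against 496, 631 and 514, and fell by 0.47 ± 0.09 (limma adjusted p = 0.0348). The call of PDC2 was lost without MYB12OX/tt4 replicate 2 (limma adjusted p = 0.0659), that of AT4G38540 without any 1 of the 6 arrays, and that of DPL1 without any but tt4 replicate 1. Among the falls without a gene name were 262603_at (-0.82), 264790_at (-0.51), 252117_at (-0.47) and 248737_at (-0.38), which lost their calls in 3 to 6 of 6 such cases. The adjusted p of the last probe set inside the threshold was 0.0409 and that of the first outside it 0.0536.

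**Figure D1:**
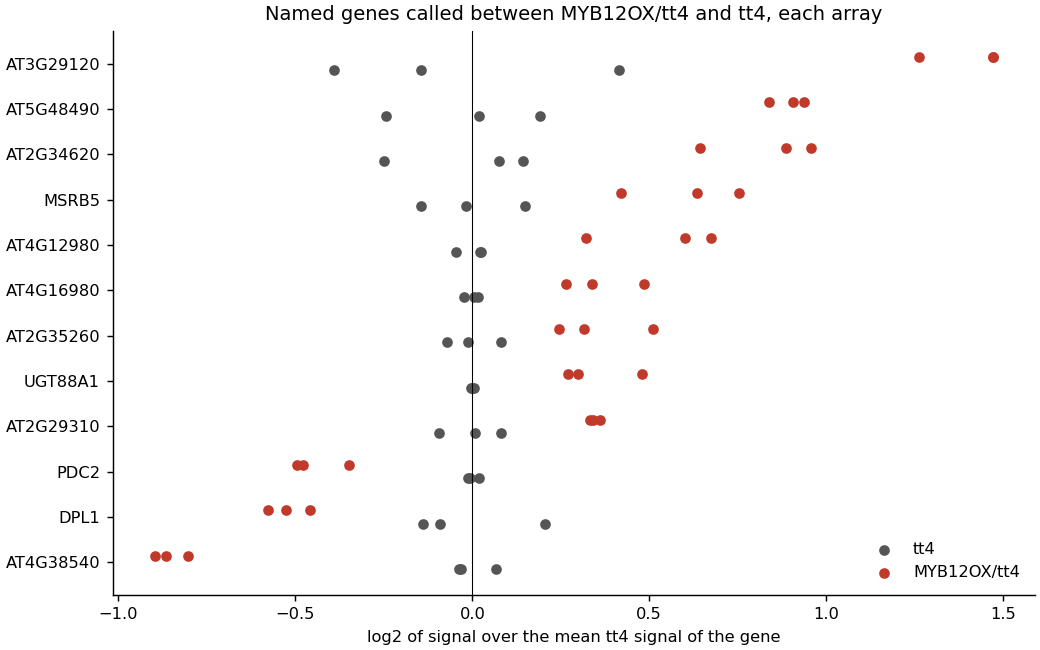
Each point is 1 array, placed on the horizontal axis by log2 of its signal over the mean tt4 signal of the same gene, with tt4 in grey and MYB12OX/tt4 in red. The 12 named genes called between the genotypes are shown, and in each the arrays of the genotypes do not overlap. AT3G29120 is the farthest to the right and AT4G38540 the farthest to the left.

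A pair of unnamed probe sets was lower wherever MYB12OX was present. The probe set 262473_at read 2779, 2516 and 2533 in MYB12OX/tt4 and 3832, 4097 and 3604 in tt4, a difference of -0.55 ± 0.06 (limma adjusted p = 7.78e-05). In MYB12OX against Col-0 the difference was -0.53 ± 0.06 (limma adjusted p = 0.000109), and the effects differed by -0.02 ± 0.09. Its 12 arrays with MYB12OX lay between 2516 and 3106 and the 12 others between 3604 and 4856. The probe set 266091_at read 687, 611 and 667 against 908, 792 and 908, a difference of -0.39 ± 0.07 (limma adjusted p = 0.0179). With an intact CHS gene it differed by -0.39 ± 0.07 (limma adjusted p = 0.00572), and its 12 arrays with MYB12OX reached 687 at most against 699 at least in the others. The call of 266091_at was lost without MYB12OX/tt4 replicate 2, tt4 replicate 1 or tt4 replicate 3 (limma adjusted p up to 0.127). Of 14935 probe sets, 245126_at had every array with MYB12OX above every other array, and these were the only 2 with every such array below. They were picked out by that order, so the separation over 24 arrays is a description.

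**Figure D2:**
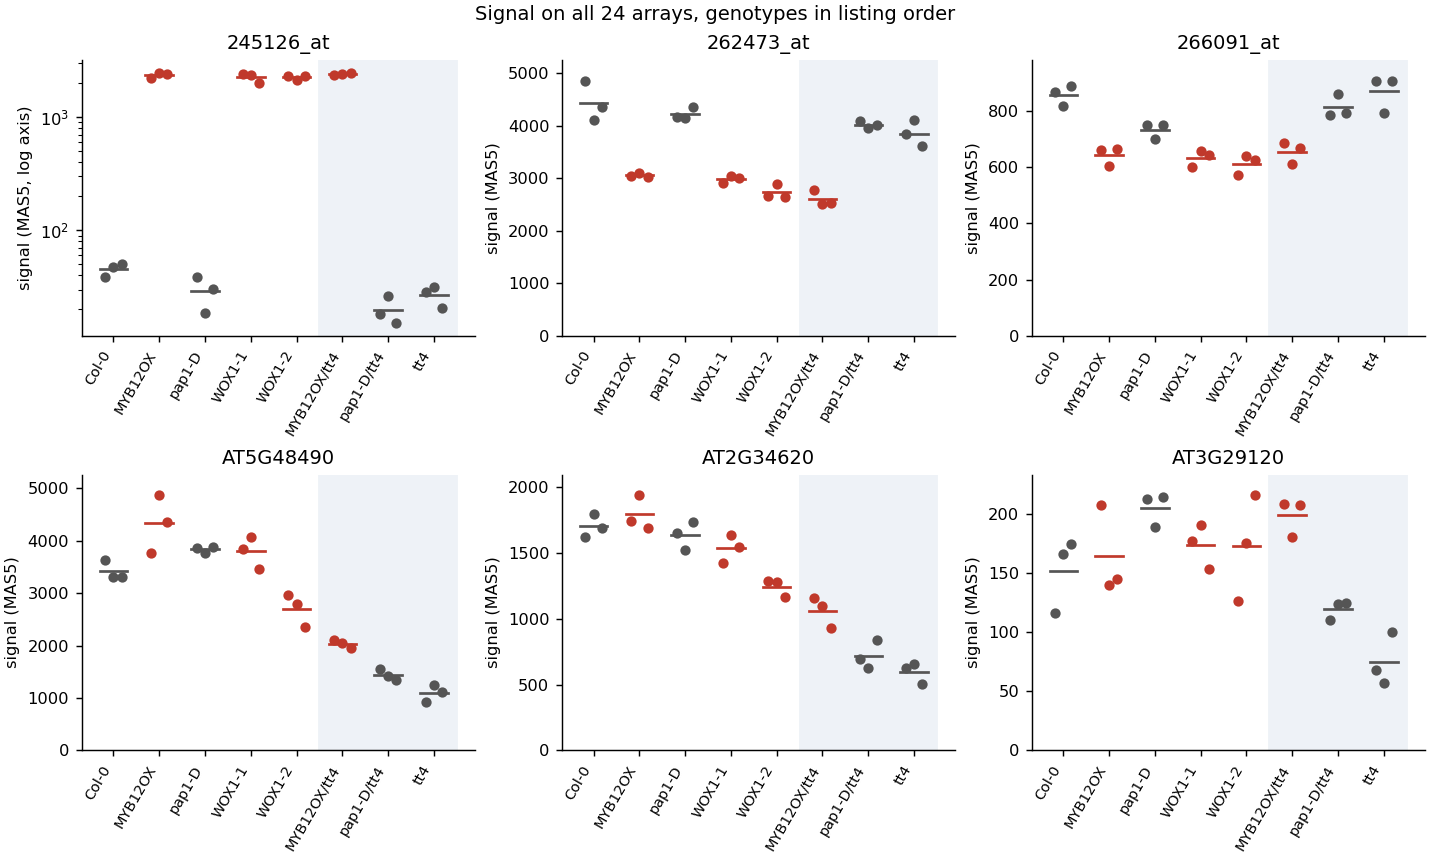
Signal of 6 probe sets on all 24 arrays, with 1 point per array, a bar at the mean of each genotype, genotypes on the horizontal axis in the order of the sample list, red for genotypes that carry MYB12OX and shading over those in the tt4 background. The vertical axis is linear from 0 except for 245126_at, where it is logarithmic. The upper row separates red from grey in every genotype, while AT5G48490 and AT2G34620 in the lower row also decline from left to right.

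The levels of the called probe sets were also read in genotypes outside the comparison, in the order of the sample list. Of the 18 rises other than 245126_at, 16 had a lower mean in WOX1-2, a cross of MYB12OX with pap1-D, than in Col-0, against 54.6% of all tested probe sets. Of the 9 falls, 5 had a higher mean in WOX1-2 than in Col-0, against 45.4% of all tested, a share near that background. Neither genotype belongs to the comparison of MYB12OX/tt4 with tt4. AT4G12980, for example, started from a mean of 2019 in Col-0 and stood at 1757 in MYB12OX and 975 in WOX1-2, and the tt4 lines went on to 818 with MYB12OX, 670 with pap1-D and 563 alone. PDC2 rose instead over the last genotypes, from 1963 in WOX1-2 to 2215, 2826 and 3005 in the tt4 lines in that same order. The sources used here give no date or batch, and what part the order had in the results was not tested. A fit with the place in the list as a covariate was tried, but it cannot test this. Each genotype holds 3 neighbouring places in the order of its replicates. The slope therefore comes from replicate numbers within genotypes, cannot be told from a replicate effect, and is carried over to the distance between genotypes. That fit called 144 probe sets, and 3 of the 28 were among them, namely 245126_at, 262473_at and AT3G29120. The other 21 described by name or number here lost their calls and kept their sign, and 7 of them shrank by more than a factor of 2. These 7 came to 0.01 for 248910_at (limma adjusted p = 0.987), -0.01 for 252117_at (0.985), 0.09 for UGT88A1 (0.807), 0.16 for AT4G16980 (0.553), -0.17 for AT4G38540 (0.863), 0.18 for 267256_s_at (0.792) and 0.23 for AT4G12980 (0.650). The differences of AT5G48490, AT2G34620 and PDC2 came to 0.71 (limma adjusted p = 0.0947), 0.68 (0.122) and -0.43 (0.179).

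Genes of flavonoid synthesis and of pathways near it were read from 18 lists of 213 genes, and 47 of them have a probe set of their own, of which 40 passed the brightness filter. Of those 40, 8 averaged under 85.2 in both MYB12OX/tt4 and tt4 and passed only through other genotypes, so they are given by their signals. Among the other 32, 0 were called with limma and 4 had an unadjusted p under 0.05, which is 12.5% beside 10.7% of all tested probe sets. With 0.187% of all tested probe sets called, no call among so few genes is no result about them. Their median difference was 0.02, beside -0.01 over all tested probe sets, and they ranged from -0.38 to 0.70. Many known targets of MYB12 are not among them. Of the 6 listed genes of the core flavonoid pathway, only CHIL had a tested probe set. CHS, the listed entry enzymes of phenylpropanoid synthesis and the listed flavonoid regulators had none.

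Among the enzymes that attach sugars to flavonols, UGT78D1, a rhamnosyltransferase, read 177, 268 and 231 in MYB12OX/tt4 and 293, 212 and 276 in tt4. UGT78D2, a glucosyltransferase, read 176, 222 and 197 against 244, 164 and 249. The arrays of both genotypes overlapped in both genes, and the differences were -0.18 (95% interval -0.55 to 0.19) and -0.11 (-0.39 to 0.18). The other flavonoid genes were dim in both genotypes, where a difference on the offset scale says little. CHIL, a non-catalytic helper of chalcone synthesis, averaged 82.6 in MYB12OX/tt4 and 79.7 in tt4, and AT1G06000, another flavonol rhamnosyltransferase, 44.1 and 35.9. UGT78D3 and UGT91A1 were too dim to test, with highest signals on any array of 14.3 and 43.4. So was UGT84A1 (4.84), which shared their list but is not taken here as a flavonol enzyme.

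In the anthocyanin branch, DFR, the reductase that commits the pathway to anthocyanins, read 48.4, 28.5 and 25.2 in MYB12OX/tt4 and 8.78, 37.2 and 35.3 in tt4. All 6 arrays were under 85.2, whereas DFR averaged 2159 in pap1-D/tt4, which lacks the same enzyme. The anthocyanin glucosyltransferase gene AT4G14090 read 22.4, 4.33 and 6.25 in MYB12OX/tt4 and 14.9, 2.79 and 9.66 in tt4. UF3GT, an anthocyanin xylosyltransferase, averaged 17.9 and 32.2, and AT5MAT, an anthocyanin malonyltransferase, 40.3 and 31.0. These signals cannot be told from background.

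Among the list genes, EXLA1 and GSTU20 had the smallest adjusted p-values, and neither passed. GSTU20, a glutathione transferase, read 1491, 1481 and 1054 in MYB12OX/tt4 and 902, 754 and 755 in tt4, a difference of 0.70 ± 0.20 (limma adjusted p = 0.164). With the place in the list as a covariate, whose slope rests on replicate numbers within genotypes, that difference turned to -0.20 (limma adjusted p = 0.870). EXLA1, an expansin-like cell wall protein, read 4294, 4116 and 3794 against 3300, 2644 and 2356, a difference of 0.56 ± 0.16 (limma adjusted p = 0.159). The arrays of the genotypes did not overlap in either gene. With an intact CHS gene, EXLA1 rose by 0.90 ± 0.16 (limma adjusted p = 0.00539). The 5 expansins brighter than 85.2 in either genotype differed by -0.27 to 0.56, and EXPB1 and EXLA3 were dimmer. The auxin genes GH3.3, WES1 and IAA29 differed by -0.38, -0.26 and -0.18, none called, and with the list covariate they turned to 0.99, 1.17 and 1.11 (limma adjusted p = 0.443, 0.0960 and 0.0501). The 3 glucosinolate genes differed by 0.01 to 0.31 and the 4 genes of cold, drought and the clock by -0.32 to 0.20. The 95% intervals of the 4 genes of jasmonate and defensins reached from -1.40 to 2.19, and each left room for a change by a factor of 2.

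**Figure D3:**
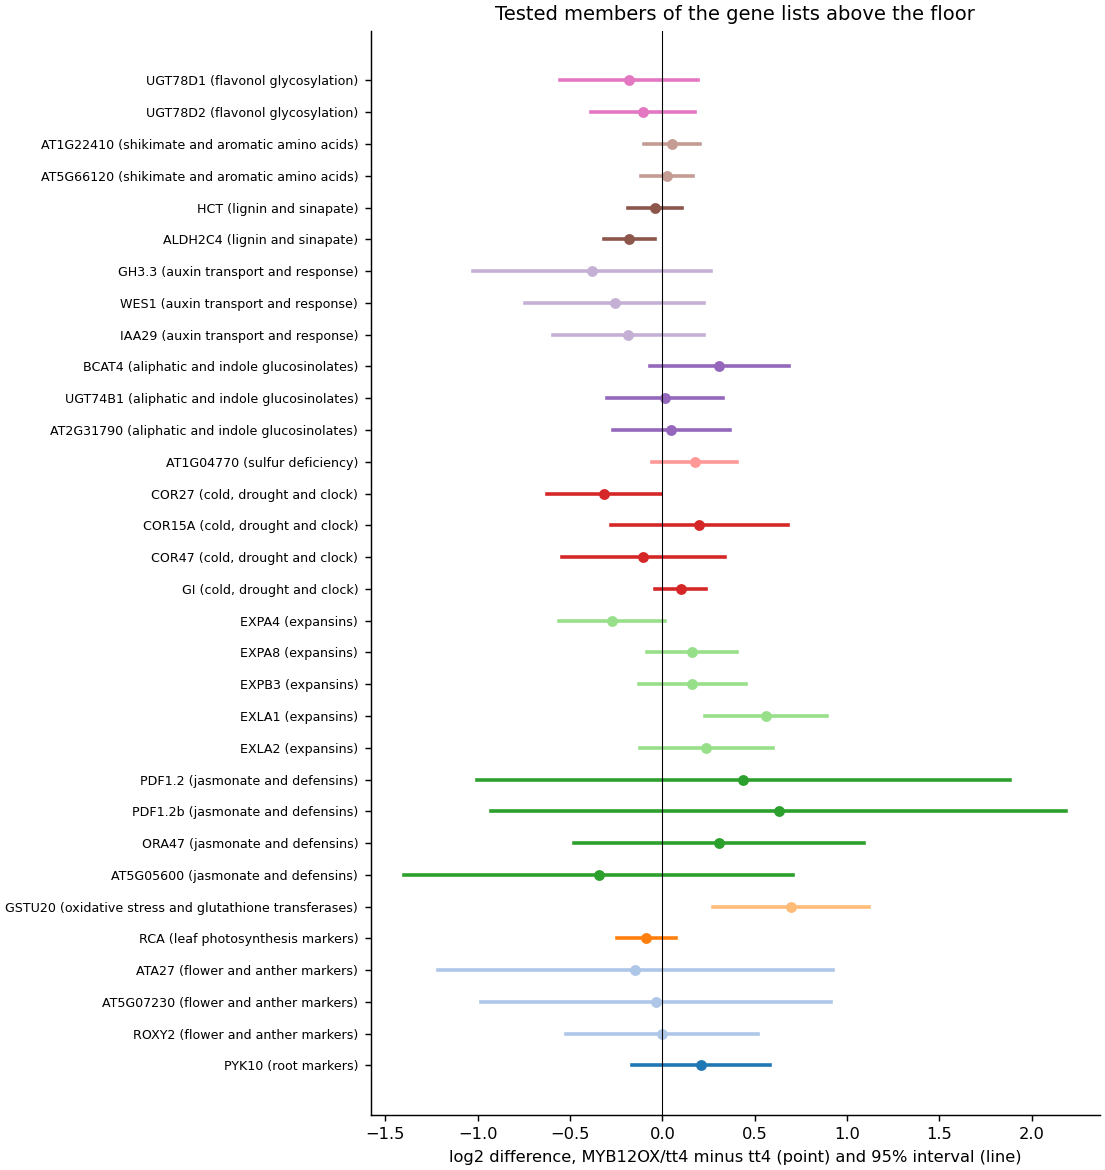
The horizontal axis gives the log2 difference of MYB12OX/tt4 from tt4, with a point for each of the 32 tested list genes brighter than 85.2 in either genotype and a line for its 95% interval, coloured by list. No gene was called after adjustment, and the widest lines belong to the defensin genes PDF1.2 and PDF1.2b.

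MYB12OX against Col-0 called 84 probe sets higher and 66 lower, which is 0.562% and 0.442%. This count fell to 34 without Col-0 replicate 1, 40 without MYB12OX replicate 3 and 69 without MYB12OX replicate 2. The order of the counts with and without CHS turned with the place in the list as a covariate, to 24 calls with CHS and 144 without. That covariate does not test a drift between genotypes. The comparisons share no arrays, but they do share the fit and its estimate of spread. They had 3 calls in common, 245126_at, 262473_at and 266091_at, all in the same direction, which is 10.7% of the 28 and 2% of the 150. Without 245126_at, the 83 probe sets higher in MYB12OX had a median difference of 0.57 from Col-0 and of 0.11 between MYB12OX/tt4 and tt4. Of these 83, 60 (72.3%) differed upwards without CHS, against 47.3% of all tested, and 19 had an unadjusted p under 0.05 that way against 4 the other way. The 66 lower probe sets had a median of -0.53 with an intact CHS gene and of -0.05 without. Of these, 45 (68.2%) differed downwards, against 52.7% of all tested. At an unadjusted p under 0.05, 10 of the 66 differed downwards and 7 upwards. Over all tested probe sets, 5.49% differed upwards and 5.24% downwards without CHS at that unadjusted p. In the opposite direction of reading, the 18 rises called without CHS had a median of 0.01 in MYB12OX against Col-0, and the 9 falls had one of -0.11.

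**Figure D4:**
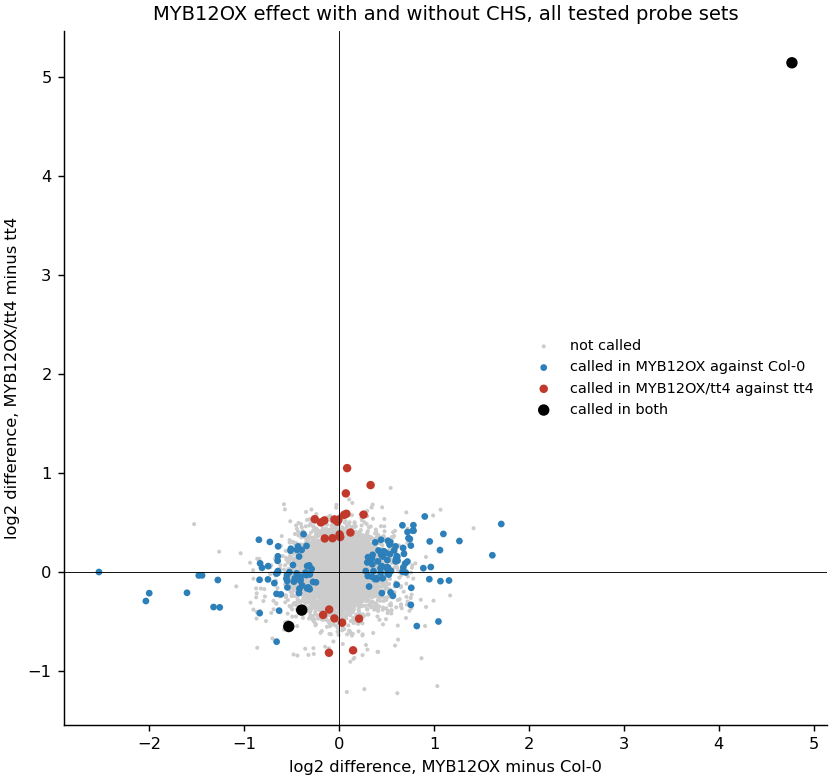
Each point is 1 of the 14935 tested probe sets, with the log2 difference of MYB12OX from Col-0 on the horizontal axis and that of MYB12OX/tt4 from tt4 on the vertical axis. Blue points were called with an intact CHS gene, red points without CHS, and the 3 black points in both. Blue points spread along the horizontal axis and red ones along the vertical axis, and 245126_at is alone at the upper right.

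Whether the effect of MYB12OX differs between both CHS states was tested as the difference of the 2 differences. It called 26 probe sets with a higher and 14 with a lower effect without CHS, which is 0.174% and 0.0937%, and 40 or 0.268% together. EXPA8, an expansin that loosens cell walls, averaged 5455 in Col-0 and 3466 in MYB12OX, and fell there by 0.65 ± 0.12 (limma adjusted p = 0.00609). Without CHS it read 1240, 1059 and 1005 with MYB12OX and 1098, 841 and 1013 in tt4, overlapping arrays that differed by 0.16 ± 0.12. The effects of EXPA8 differed by 0.80 ± 0.17 (limma adjusted p = 0.0452). EXPA8 averaged 2736 in pap1-D, 1774 in WOX1-1 and 1304 in WOX1-2, which stand between these pairs in the sample list. CYP78A9, a cytochrome P450 that promotes organ size, differed by -0.45 ± 0.12 with CHS and by 0.47 ± 0.12 without, both short of the threshold, and the effects differed by 0.92 ± 0.17 (limma adjusted p = 0.0237). Its tt4 arrays read 67.9, 52.1 and 70.5, all under 85.2. The sizes of its difference without CHS and of the difference between effects therefore depend on the offset. AT2G30990 rose by 0.45 ± 0.08 with CHS (limma adjusted p = 0.00762) and differed by -0.21 ± 0.08 without, so that the effects differed by -0.66 ± 0.12 (limma adjusted p = 0.0237). It averaged 515 in Col-0, 714 in MYB12OX, 947 in WOX1-2, 869 in MYB12OX/tt4 and 1016 in tt4. MYB12OX follows Col-0 in the sample list, but MYB12OX/tt4 precedes tt4. A steady drift along the list would give the 2 differences opposite signs, and it cannot be told from a difference between effects. AT2G34620 and AT4G12980, which rose without CHS, differed by 0.07 and -0.19 with it, and the tests between effects gave 0.72 ± 0.15 and 0.69 ± 0.14. For AT5G48490 that test missed the threshold (0.55 ± 0.14, limma adjusted p = 0.104), so its rise is not shown to depend on CHS.

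The count of 40 depended on single arrays. Leaving out 1 array gave 2 calls without Col-0 replicate 1, 12 without Col-0 replicate 2 and 86 without Col-0 replicate 3. It gave 41 without MYB12OX replicate 1, 5 without replicate 2 and 3 without replicate 3. In the CHS mutants it gave 6, 19 and 18 without MYB12OX/tt4 replicates 1, 2 and 3, and 20, 7 and 14 without tt4 replicates 1, 2 and 3. Of these 12 cases, AT2G34620 and AT4G12980 each lost this call in 10, EXPA8 in 9, CYP78A9 in 6 and AT2G30990 in 5. With the place in the list as a covariate 34 probe sets were called, and none of the 40 was among them. Its slope comes from replicate numbers within genotypes, so this does not test a drift between genotypes.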

How the data were processed

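RNA of 24 arrays was compared. The deposited values are linear signal intensities that the authors made with MAS5, per the submitters' processing notes. MAS5 scales each array to a common mean, which would hide a shift of most genes. Without a detection call, dim signals and background look alike. An offset of 42.6 (the median signal of 170.4 divided by 4) was added before log2, which understates changes of dim probe sets. Tests took the probe sets brighter than 85.2 on 3 or more of the 24 arrays, without the 64 control probe sets. All 8 genotypes entered 1 fit in limma 3.58.1 (R 4.3.3) with an intensity trend and 16 residual degrees of freedom. Tests were two-sided, with Benjamini-Hochberg adjustment over all 14935 probe sets. The fit was tested on simulated data with independent noise on each array. These held no drift along the sample list and no deviation shared by same-numbered arrays, so they say nothing about either.

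Deviations of same-numbered arrays from their genotype means correlated at 0.17, 0.16 and 0.11 between MYB12OX/tt4 and tt4, across probe sets. By a limit of 0.1 this marks the numbers as pairs there. Between MYB12OX and Col-0 the deviations correlated at 0.09, -0.08 and 0.14, which does not. The main fit took no account of pairs, so the SE and p-values given are unpaired. A replicate block entered only as an alternative, with 97 calls between MYB12OX/tt4 and tt4 in place of 28.

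Names came from the platform annotation, updated through the RefSeq table of TAIR10.1. Of 22746 probe sets, 13513 had 1 gene, 503 several and 8730 none, and 13436 of the 13513 matched RefSeq. Named were all tested list genes, up to 15 called genes per direction with the greatest difference, up to 8 per direction of the interaction and up to 6 unnamed probe sets. Those of the main comparison outside the lists had to have a mean above 85.2 in the brighter genotype and arrays that did not overlap. Those of the interaction had neither condition. Genes named from the mean of both effects had to have arrays that did not overlap in either comparison. The comparison, lists and rule were chosen with earlier results of these data known. Alternatives were the offset, the filter, quantile normalization, array weights, the trend, a replicate block, the place in the sample list, the arrays fitted and leaving out 1 array. The growth protocol also mentions drought, which no label ties to an array, so all arrays were taken as untreated.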

Additional observations from a re-analysis of the deposited data

Results flagged for a closer look

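The effect of MYB12OX without CHS differed from its effect with CHS in a test of the difference itself (limma, adjusted p under 0.05) for the following genes and probe sets, given as the log2 effect without CHS minus that with CHS. Among those taken that were called between MYB12OX/tt4 and tt4, the effects of AT2G34620 differed by 0.72, of AT4G12980 by 0.69, of AT2G29310 by 0.49, of 248910_at by 0.79, of 253362_s_at by 0.54 and of 252117_at by -0.68. Among other named genes with a higher effect without CHS, CYP78A9 differed by 0.92, AT4G19430 by 0.92, EXPA8 by 0.80, AT1G70420 by 0.79, AT2G21185 by 0.68 and AT3G57680 by 0.62. Named genes with a lower effect without CHS were AT1G72060 (-1.09), AT1G52200 (-0.81), AT2G30990 (-0.66) and AT2G46900 (-0.54). Probe sets without a gene name differed by 2.53 for 247718_at, 1.17 for 245444_at, 1.03 for 251309_at, 0.76 for 260957_at and 0.74 for 249035_at. In the other direction 255479_at differed by -1.55, 262119_s_at by -1.37, 247406_at by -1.24, 259466_at by -0.92, 256433_at by -0.86 and 250666_at by -0.77.

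The levels behind these tests varied along the sample list. For 247718_at the Col-0 mean was 476 and the MYB12OX mean 46.5, while MYB12OX/tt4 read 141, 232 and 611 and tt4 read 224, 482 and 194. For 255479_at the mean rose from 708 in Col-0 to 1485 in MYB12OX and stood at 2358 in MYB12OX/tt4 and 3353 in tt4. The probe set 255479_at passed in 23 of 24 alternatives, 262119_s_at in 21 and 260957_at in 20, the greatest numbers among those that the rule took. No gene or probe set named here passed with the place in the list as a covariate.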

How the results depend on the processing

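Between MYB12OX/tt4 and tt4 (28 calls), the count moved by over 1.5 times in the fit to the 6 arrays (9), with array weights (103), with the replicate block (97) and with the place in the list as a covariate (144), and leaving out 1 array gave 12 to 26. The probe sets 245126_at and 262473_at passed in 18 of 18 alternatives, AT3G29120 in 17 of 17, and AT5G48490 and AT2G34620 in 17 of 18. MYB12OX against Col-0 (150 calls) gave 82, 353, 338 and 24 under those same 4 settings, 34 to 211 without 1 array, and 253 without pap1-D replicate 1 and WOX1-1 replicate 1, which stood apart on the second principal component (chosen after seeing the data). The test between both effects (40 calls) gave 21 with no offset, 11 without the filter, 63 after quantile normalization, 137 with array weights, 9 without the trend, 184 with the replicate block and 2 to 86 without 1 array. With the place in the list as a covariate, 4 of its effects reversed, 251309_at to -0.37, 249035_at to -0.17, 252117_at to 0.0073 and AT1G72060 to 0.33. That covariate takes its slope from replicate numbers within genotypes, so it cannot test a drift between genotypes. The cause was not tested. Signals near background limit the dim genes, and the number of arrays limits all.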

Other observations

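The mean of the MYB12OX effects with and without CHS, a contrast added after the data were seen, draws on 12 arrays and called 83 probe sets higher and 52 lower, 0.904% of those tested (limma, adjusted p under 0.05). EXO, a growth gene that responds to brassinosteroids, rose by 0.79 ± 0.14 (limma adjusted p = 0.00812), but by 1.27 with CHS and 0.31 without, the latter not called. EXLA1, an expansin-like gene, rose by 0.73 ± 0.11 (limma adjusted p = 0.00291), with 0.90 and 0.56 in the separate settings. AT5G48490 rose by 0.61 ± 0.07 (limma adjusted p = 9.09e-05). AT1G50040, AT1G23030 and AT4G37240 rose by 0.89, 0.60 and 0.57, and the rise of AT1G50040 passed in 12 of 24 alternatives.

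QQS, a gene known for its part in dividing carbon and nitrogen between starch and protein, fell by 0.68 ± 0.11 in that mean (limma adjusted p = 0.00329). It read 323, 272 and 316 in MYB12OX/tt4 and 599, 493 and 477 in tt4. Arrays without overlap were a condition for naming a gene from this mean. The separate difference of QQS without CHS was -0.70 ± 0.16 (limma adjusted p = 0.0612). With an intact CHS gene it fell by 0.66 ± 0.16 (limma adjusted p = 0.0415), and the mean effect passed in 24 of 24 alternatives. AT5G02830 fell by 0.51, AT1G30260 by 0.36, and AT1G36730, AT5G52780 and AT4G27900 by 0.33 each. Of these, AT4G27900 passed in 24 of 24 alternatives, AT1G36730 in 21, AT5G02830 in 20, AT5G52780 in 14 and AT1G30260 in 13.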
